A study of Mus musculus with 108 samples.

Results

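The mitochondrial genome of the mouse carries 37 annotated genes, and all of them were taken as the set described here by 1 rule: every row of the gene count tables whose symbol starts with mt-. They were 37 of 55573 gene identifiers in the tables. By class, 13 encode proteins of the respiratory chain and ATP synthase (mRNAs), 2 encode the RNAs of the mitochondrial ribosome (rRNAs) and 22 encode transfer RNAs (tRNAs). The choice used names only and no measured value.

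Both strands of the circular mitochondrial genome are transcribed into long precursors, in which tRNAs lie between most of the mRNAs and rRNAs. Mitochondrial RNase P, an assembly of 3 nuclear-encoded proteins (Trmt10c, Hsd17b10 and Prorp), cuts each tRNA at its 5′ end, Elac2 cuts at its 3′ end, and most of the freed mRNAs receive short poly(A) tails. The oocyte holds more mitochondrial DNA than any other cell of the body, and its mitochondria pass to the embryo. EXOSC10 is an exonuclease of the RNA exosome, the complex that trims and degrades RNA in the nucleus and its surroundings.

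The study sequenced single mouse oocytes in which Exosc10 had been deleted in the oocyte only (cKO) beside control oocytes (ctr). The promoter that drove the deletion and the ages of the females are not given in the sources used here. Libraries of 2 kinds were made. PolyA libraries were amplified from RNA that oligo(dT) beads had captured; RiboMinus libraries were depleted of ribosomal sequences and primed with random hexamers. Whether the depletion covered the mitochondrial rRNAs is not given in the sources used here.

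The 10 groups were as follows. In polyA libraries, germinal vesicle (GV) oocytes, which are arrested before maturation, came as 7 control oocytes from 2 females and 15 cKO oocytes from 2 females. GV oocytes held in M2 medium for 3 h (GV3h) came as 8 control oocytes from 3 females and 11 cKO oocytes from 3 females. Metaphase II (MII) eggs, taken from the oviduct after ovulation, came as 8 control eggs from 3 females and 15 cKO eggs from 3 females. In RiboMinus libraries there were 8 control GV oocytes from 2 females, 7 cKO GV oocytes from 2 females, 3 control MII eggs from 1 female (V1145) and 4 cKO MII eggs from 2 females (V1166 and V1167). Each female gave oocytes of 1 group, so differences between groups were tested on counts summed per female with edgeR's quasi-likelihood test and Benjamini-Hochberg adjustment over all genes, and a gene is called at an adjusted p under 0.05. With 1 control female at MII in RiboMinus libraries, that female and the genotype cannot be told apart, and her spread was assumed to equal that of the other groups.

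Total gene counts per oocyte ran from 4638718 to 8735914 in the 64 polyA libraries and from 12319658 to 62675760 in the 22 RiboMinus libraries. In RiboMinus MII eggs, depth moved with genotype: controls held 16220993 to 20447150 counts and cKO eggs 20678209 to 62675760, and the part of depth in the results was not tested. Exosc10 separated the genotypes in all 5 pairs of groups, with mean levels of 48.1 to 133 counts per 1000000 (CPM, scaled by the TMM method, as are all levels in CPM below) in controls and 0.528 to 3.54 in cKO oocytes. All 10 oocyte markers were counted in every group, and the summed level of 12 granulosa cell markers stayed at or under 139 CPM. That sum was 65.5 to 139 in the polyA MII eggs of both genotypes and 21.6 to 82.1 in polyA GV oocytes; its part in the changes from GV to MII was not tested. No spike-in counts were used, so every level below is relative to the other RNA of the same library, and more mitochondrial RNA and less of other RNA cannot be told apart. In the RiboMinus libraries 1 cKO MII egg (V1166_2) stood above the other 3 in most mRNAs, and its effect is given where leaving it out ends a call or turns a direction.

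Not all 37 genes could be read. A member was taken as counted where at least 1 library gave it 100 counts or more, which left 7 mRNAs, both rRNAs and 12 tRNAs. The 7 mRNAs encode 5 subunits of complex I, the NADH dehydrogenase (mt-Nd1, mt-Nd2, mt-Nd4, mt-Nd5 and mt-Nd6), the catalytic subunit of cytochrome c oxidase (mt-Co1) and cytochrome b of complex III (mt-Cytb). Of the other 16, 11 formed a continuous stretch: the consecutive genes from mt-Ts1 to mt-Nd4l, 6 mRNAs and 5 tRNAs, held 398 of the 14597032 counts given to all members over 86 libraries. The 6 unread mRNAs were mt-Co2, mt-Atp8, mt-Atp6, mt-Co3, mt-Nd3 and mt-Nd4l. The remaining 5, the tRNAs mt-Tw, mt-Tn, mt-Ty, mt-Th and mt-Te, lie singly outside it and had 0 counts in all 86 libraries. No count at all was given to 10 members, 9 of them tRNAs and the other mt-Nd4l.

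That stretch of the mitochondrial genome has a near-identical copy in the nuclear genome. On chromosome 1 of GRCm38, 7 annotated genes between bases 24611535 and 24616197 matched 8 mitochondrial mRNAs at 99% identity or more. The match took in 681 bases of mt-Co2, 678 of mt-Atp6, 783 of mt-Co3, 345 of mt-Nd3 and 294 of mt-Nd4l, all without a mismatch except mt-Nd3. For mt-Atp8 it was the 43 bases that this gene shares with mt-Atp6. Only annotated genes were searched, so a match of the rest of mt-Atp8 between those genes would not be seen. For mt-Nd4 it was 876 bases, which left 502 outside the copy, and for mt-Co1 it was 483 bases, which left 1062. The tables held no reads with more than 1 alignment, so a read equal in both places had no row in either gene, and the counts of mt-Nd4 come from reads that reach outside its copy. For mt-Co1 they come from such reads and from any over the 1 base by which its copy differs.

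The gene mt-Nd3 and its copy Gm28438 had unequal counts. They differ by a single base in 345, T3C, with positions counted from the first base of mt-Nd3. Their first 60 bases are given because they hold that base, the 1 difference within the 2 genes; the capital marks it. How reads were divided between the 2 rows was not tested. The first line is chrM:9459-9518 on the plus strand and the second chr1:24613060-24613119 on the minus strand, both of mm10.
mt-Nd3: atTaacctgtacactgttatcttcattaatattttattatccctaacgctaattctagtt
Gm28438: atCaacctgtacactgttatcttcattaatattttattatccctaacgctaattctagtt
Over the polyA libraries mt-Nd3 had 2 counts and Gm28438 had 1958; over the RiboMinus libraries they had 60 and 62292. Of the unread stretch and the chromosome 1 copies, Gm28438 is thus the only row compared here. Its level was higher at MII than at GV: it rose in polyA libraries by 2.02 on the log2 scale in controls (adjusted p = 0.000624, edgeR) and by 1.41 in cKO oocytes (adjusted p = 0.00687). The call in controls held in all 14 alternatives, and that in cKO oocytes was lost with library totals, with no filter on low counts and without V857 (adjusted p up to 0.0674). At GV3h it stood lower than at GV, at 0.471 against 2.97 CPM in controls (−2.63, adjusted p = 0.112) and 0.901 against 2.85 in cKO oocytes (−1.63, adjusted p = 0.913), differences called in 4 and 2 of 14 alternatives. In RiboMinus libraries it rose by 2.19 in cKO oocytes (adjusted p = 0.0207) and gave 2.32 in controls (adjusted p = 0.0657, called in 5 of 12 alternatives); the call in cKO oocytes was lost with only the groups compared and without V1131 or V1166 (adjusted p up to 0.105). Whether its reads came from the mitochondrial genome of these mice or from chromosome 1 was not tested.

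The overlap inside the unread stretch is shown by mt-Atp8, a small subunit of ATP synthase, which had 17 counts in polyA libraries and 0 in RiboMinus libraries. It lies at chrM:7766-7969 of mm10, plus strand. The capitals mark its last bases, which are also the first of mt-Atp6 and lie in the chromosome 1 copy.
mt-Atp8: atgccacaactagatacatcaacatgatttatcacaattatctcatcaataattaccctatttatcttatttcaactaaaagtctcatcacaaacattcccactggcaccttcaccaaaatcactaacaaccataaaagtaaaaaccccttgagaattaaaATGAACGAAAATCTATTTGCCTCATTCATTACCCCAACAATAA

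Among the tRNAs, 3 that could be read carry most of the findings below, and they are given beside 1 that had no count. mt-Tf (phenylalanine, chrM:1-68, plus strand) fell most in RiboMinus cKO MII eggs, mt-Tl1 (leucine, chrM:2676-2750, plus strand) was the 1 counted tRNA not lower in those eggs, and mt-Tq (glutamine, chrM:3772-3842, minus strand) had the highest mean level of the tRNAs in 9 of the 10 groups, RiboMinus cKO MII eggs being the exception. mt-Td (aspartate, chrM:6942-7011, plus strand) lies in the unread stretch. No letters are capitalised because no base was singled out.
mt-Tf: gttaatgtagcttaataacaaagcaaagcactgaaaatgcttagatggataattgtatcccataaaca
mt-Tl1: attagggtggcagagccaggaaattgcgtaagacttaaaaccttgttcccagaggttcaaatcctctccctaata
mt-Tq: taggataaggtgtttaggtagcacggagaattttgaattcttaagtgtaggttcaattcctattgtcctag
mt-Td: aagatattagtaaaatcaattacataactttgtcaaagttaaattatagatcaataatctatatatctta
A count on a tRNA gene does not tell a finished tRNA from a longer precursor that still holds it. The strand used in counting is not given in the sources used here, so for the 9 members on the minus strand, mt-Nd6 among them, reads of the gene and of the opposite strand cannot be told apart.

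Mitochondrial genes took a small share of the counts of every library. The mean share was higher at MII than at GV in both genotypes and both kinds of library, and it was not tested. In polyA libraries all members together took 0.328% of gene counts in control GV oocytes, 0.31% in control GV3h oocytes and 0.925% in control MII eggs. In cKO oocytes the values were 0.414%, 0.338% and 0.958%. In RiboMinus libraries they took 2.67% in control and 1.67% in cKO GV oocytes, and 4.69% in control and 3.64% in cKO MII eggs. The control stages overlapped there, with GV oocytes up to 3.97% and MII eggs, all of 1 female, from 3.89%. Egg V1166_2 had 6.69%, and the other 3 cKO eggs had 2.51%, 2.67% and 2.69%.

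The classes did not move together. The mRNA share in polyA libraries was 0.196% ± 0.0493 (SD, n = 7 oocytes) in control and 0.292% ± 0.0731 (n = 15) in cKO GV oocytes. After culture it was 0.144% ± 0.0275 (n = 8) and 0.197% ± 0.0317 (n = 11), and in eggs 0.643% ± 0.0984 (n = 8) and 0.794% ± 0.179 (n = 15). The cKO mean was the higher at each stage, with overlapping oocytes. Of the 15 cKO MII eggs, 11 came from female V897, and without her the mean was 0.607%. The rRNA share was 0.132% ± 0.0235 and 0.122% ± 0.0434 in GV oocytes, 0.166% ± 0.0205 and 0.141% ± 0.0374 after culture, and 0.281% ± 0.0837 and 0.163% ± 0.0412 in MII eggs, so here the cKO mean was the lower at each stage.

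In RiboMinus libraries the mRNA share was 1.67% ± 0.699 (n = 8) in control and 0.925% ± 0.246 (n = 7) in cKO GV oocytes. At MII it was 2.97%, 2.32% and 2.08% in the control eggs and 1.89% and 5.58% in the cKO eggs of V1166 and 2.15% and 2.18% in those of V1167. The genotypes overlapped at both stages. The rRNA share at MII was 2.33%, 2.51% and 1.78% in controls and 0.614%, 1.08%, 0.506% and 0.496% in cKO eggs, with every cKO egg below every control. The tRNA share was 0.0261% ± 0.0141 in control and 0.00656% ± 0.00413 in cKO GV oocytes; at MII it was 0.0363%, 0.0279% and 0.0231% against 0.00539%, 0.0185%, 0.0119% and 0.0159%. In polyA libraries the tRNA share was at most 0.00208% in any group mean.

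**Figure D1:**
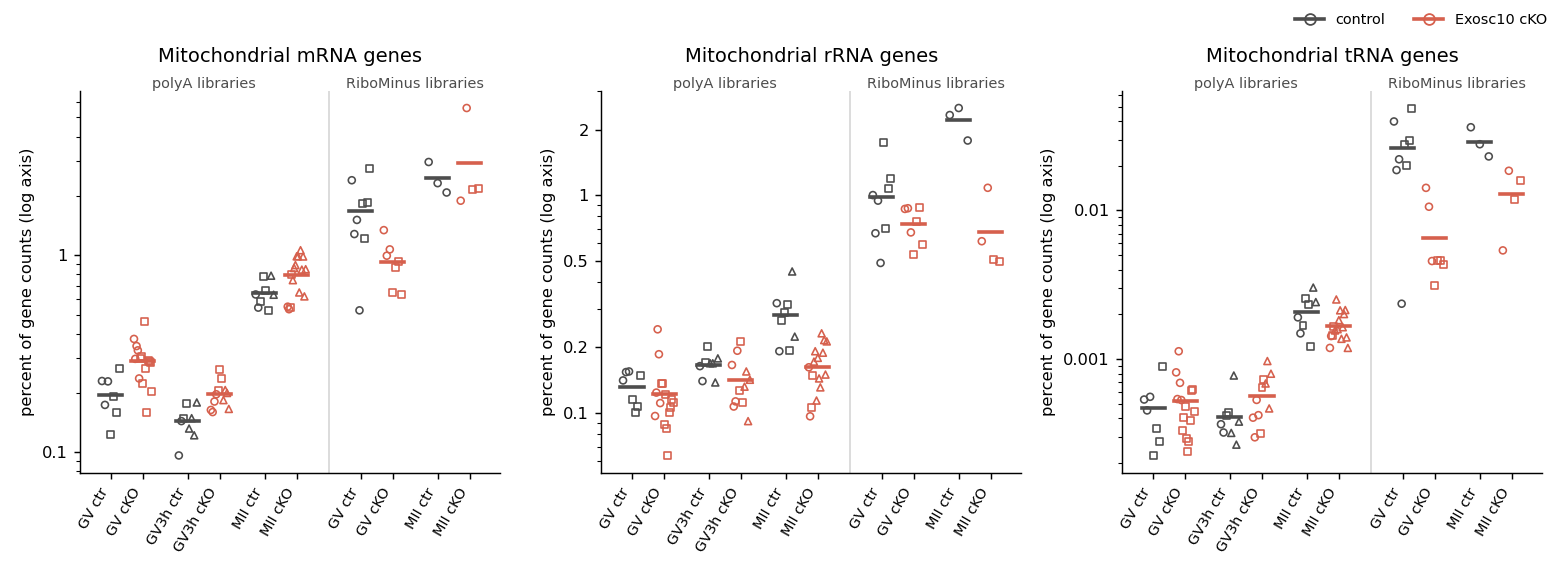
Share of gene counts (percent, log axis) taken by mitochondrial mRNA, rRNA and tRNA genes in each oocyte, by library kind, stage and genotype. Each point is 1 oocyte, its shape marks the female within a group, and bars are means over oocytes; at MII in RiboMinus libraries the 4 cKO eggs lie below the 3 controls for rRNAs and tRNAs but not for mRNAs.

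Per length, the order of the mRNAs depended on the library. Levels per length are given as CPM per kilobase of sequence outside the chromosome 1 copies. In polyA libraries of control GV oocytes mt-Nd1 stood at 448 ± 127, mt-Cytb at 429 ± 124 and mt-Co1 at 427 ± 79.3 (SD, n = 7), 3 neighbours whose differences were smaller than their spread. Then came mt-Nd4 at 163, mt-Nd5 at 138 and mt-Nd2 at 121, which also overlapped each other, and mt-Nd6 at 61.8, below mt-Nd2 in all 7 oocytes. On this scale mt-Nd6, the one mRNA read from the other strand, was the lowest of the 7 in all 6 polyA groups. Per full gene length mt-Nd4 stood at 59.3 in control GV oocytes, below the 61.8 of mt-Nd6. In the other polyA groups mt-Nd6 stayed the lowest on that scale too.

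In control MII eggs of the polyA libraries mt-Cytb at 2369 ± 326 and mt-Nd1 at 2251 ± 238 (n = 8) led, and mt-Cytb was the higher in 5 of 8 eggs. In cKO MII eggs mt-Nd1 led at 3413 ± 875 with mt-Cytb at 1855 ± 553, and mt-Nd1 was the higher in 15 of 15. RiboMinus libraries gave a flatter order: in control GV oocytes all 7 lay between 2140 (mt-Nd5) and 2981 (mt-Nd4). There mt-Nd6 at 2373 ± 1116 was level with mt-Nd1 at 2372 ± 1032. Per full gene length mt-Nd4 was instead the lowest in these oocytes, at 1086, and mt-Cytb the highest, at 2678. In control MII eggs the 7 mRNAs lay between 2565 (mt-Co1) and 5557 (mt-Cytb) per kilobase outside the copies. Of the rRNAs, mt-Rnr2, the large-subunit rRNA, exceeded mt-Rnr1, the small-subunit rRNA, in the mean of every group on this scale, at 11647 and 5527 in control MII eggs. In RiboMinus cKO MII eggs the means were 2709 and 2511, nearer to each other than their spread of 1239 and 1234.

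**Figure D2:**
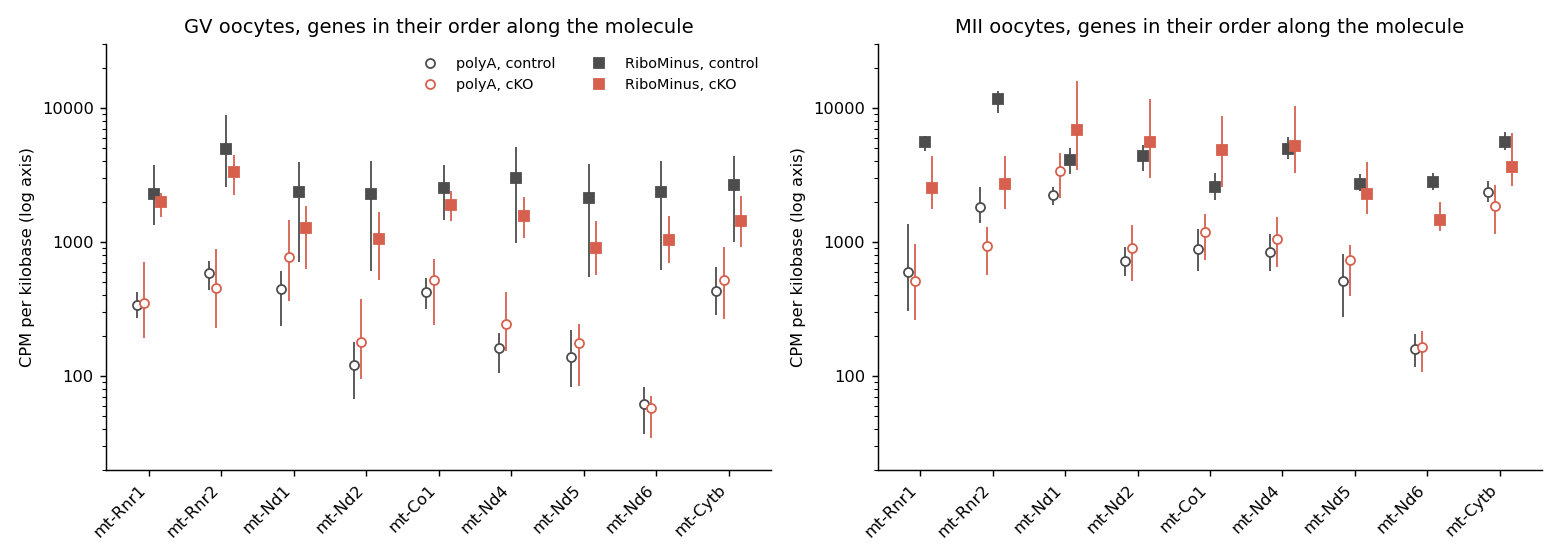
Level per length (CPM per kilobase outside chromosome 1 copies, log axis) of the 9 counted rRNA and mRNA genes in GV (left) and MII (right) oocytes, in their order along the molecule. Points are means over oocytes and lines run from the lowest to the highest oocyte; mt-Nd6 is at 61.8 in polyA and 2373 in RiboMinus libraries of control GV oocytes.

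Among the mRNAs and rRNAs, the libraries differed most for mt-Nd6. As counts per 1000000 gene counts, without TMM, mt-Nd6 averaged 33.7 in polyA and 1206 in RiboMinus libraries of control GV oocytes, 35.8 times higher. The other 6 mRNAs and the 2 rRNAs were 4.92 (mt-Nd1) to 17.4 (mt-Nd2) times higher there. The ratio of mt-Nd6 was the highest of the 9 in all 4 pairs of groups: 16.1 in cKO GV oocytes, 20.6 in control MII eggs and 10.9 in cKO MII eggs. Summed tRNA counts were 55.7 times higher in RiboMinus libraries of control GV oocytes and 12.6 times higher in those of cKO GV oocytes. The 2 kinds of library came from different females and are compared here as values, with no test.

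Among the rRNAs, mt-Rnr2 was called lower in cKO oocytes at MII in both library types and at GV3h, and was not called at GV. In polyA libraries of MII eggs it ran from 2177 over a median of 2932 to 4052 CPM in controls and from 905 over 1441 to 2037 in cKO eggs. All 15 cKO eggs were below all 8 controls. Its level was 2.28-fold lower (log2 fold change −1.19 ± 0.17 SE, adjusted p = 0.000299, edgeR quasi-likelihood test with Benjamini-Hochberg adjustment). The call held in all 15 alternatives, between −1.38 and −1.03. Of the 9 counted mRNAs and rRNAs, 2 were called at this stage, both lower, where 18.9% of all 19242 genes tested were called and 6.99% were called lower; the other was mt-Cytb.

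At RiboMinus MII, mt-Rnr2 stood at 19738, 21131 and 14408 in the control eggs, at 4521 and 6969 in the cKO eggs of V1166 and at 2884 and 2768 in those of V1167. The highest cKO egg was below the lowest control. It was 4.76-fold lower (log2 fold change −2.25 ± 0.39, adjusted p = 0.0197, edgeR). mt-Rnr1 stood at 5407, 5892 and 4536 in controls and at 1826, 4160, 1685 and 1920 in cKO eggs, also without overlap, and was 2.6-fold lower (−1.38 ± 0.29, adjusted p = 0.0325). The call of mt-Rnr2 held in all 12 alternatives and that of mt-Rnr1 in 11, without egg V1166_2 among them. With only the 2 groups compared, a fit with 1 residual degree of freedom, mt-Rnr1 was not called (−1.29, adjusted p = 0.132). The 2 rRNAs were the only ones called among the 9 counted mRNAs and rRNAs, both lower, where 7.3% of all 25425 genes tested were called and 3.69% were called lower.

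The values before MII were as follows; the difference between GV and MII in the genotype effect was not called for either rRNA in the fit over all groups, in either library type. At GV3h in polyA libraries mt-Rnr2 ran from 966 over 1313 to 1600 in controls and from 607 over 887 to 1380 in cKO oocytes, and 6 of 11 cKO oocytes were below all controls. The log2 fold change was −0.55 ± 0.17 (adjusted p = 0.0262, edgeR), the 1 call among 9 where 25.2% of all genes were called. That call rests on few females: it was lost without any 1 of V946, V983, V993, V982 or V995, with adjusted p-values of 0.0557, 0.0643, 0.0909, 0.111 and 0.0507 and log2 fold changes of −0.58 to −0.45. It was also lost with voom and the female as a random factor (−0.51, adjusted p = 0.0634).

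At GV in polyA libraries mt-Rnr2 ran from 693 over 940 to 1134 in controls and from 364 over 687 to 1406 in cKO oocytes, with 8 of 15 cKO oocytes below all controls and 2 above (−0.35 ± 0.21, adjusted p = 0.317). mt-Rnr1 was not called in any polyA genotype comparison: its means were 323 ± 53.9 and 337 ± 110 in GV oocytes, 315 ± 26.5 and 285 ± 70.2 after culture, and 571 ± 316 and 486 ± 177 in eggs (log2 fold changes 0.03, −0.15 and −0.54, adjusted p = 0.965, 0.689 and 0.118). With no filter on low counts it was called lower at MII (−0.51, adjusted p = 0.021). In RiboMinus GV oocytes the means were 7798 ± 3139 and 5232 ± 1272 for mt-Rnr2 and 2161 ± 776 and 1888 ± 308 for mt-Rnr1 (−0.62 and −0.22, adjusted p = 0.427 and 0.738). Neither rRNA was called at GV.

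**Figure D3:**
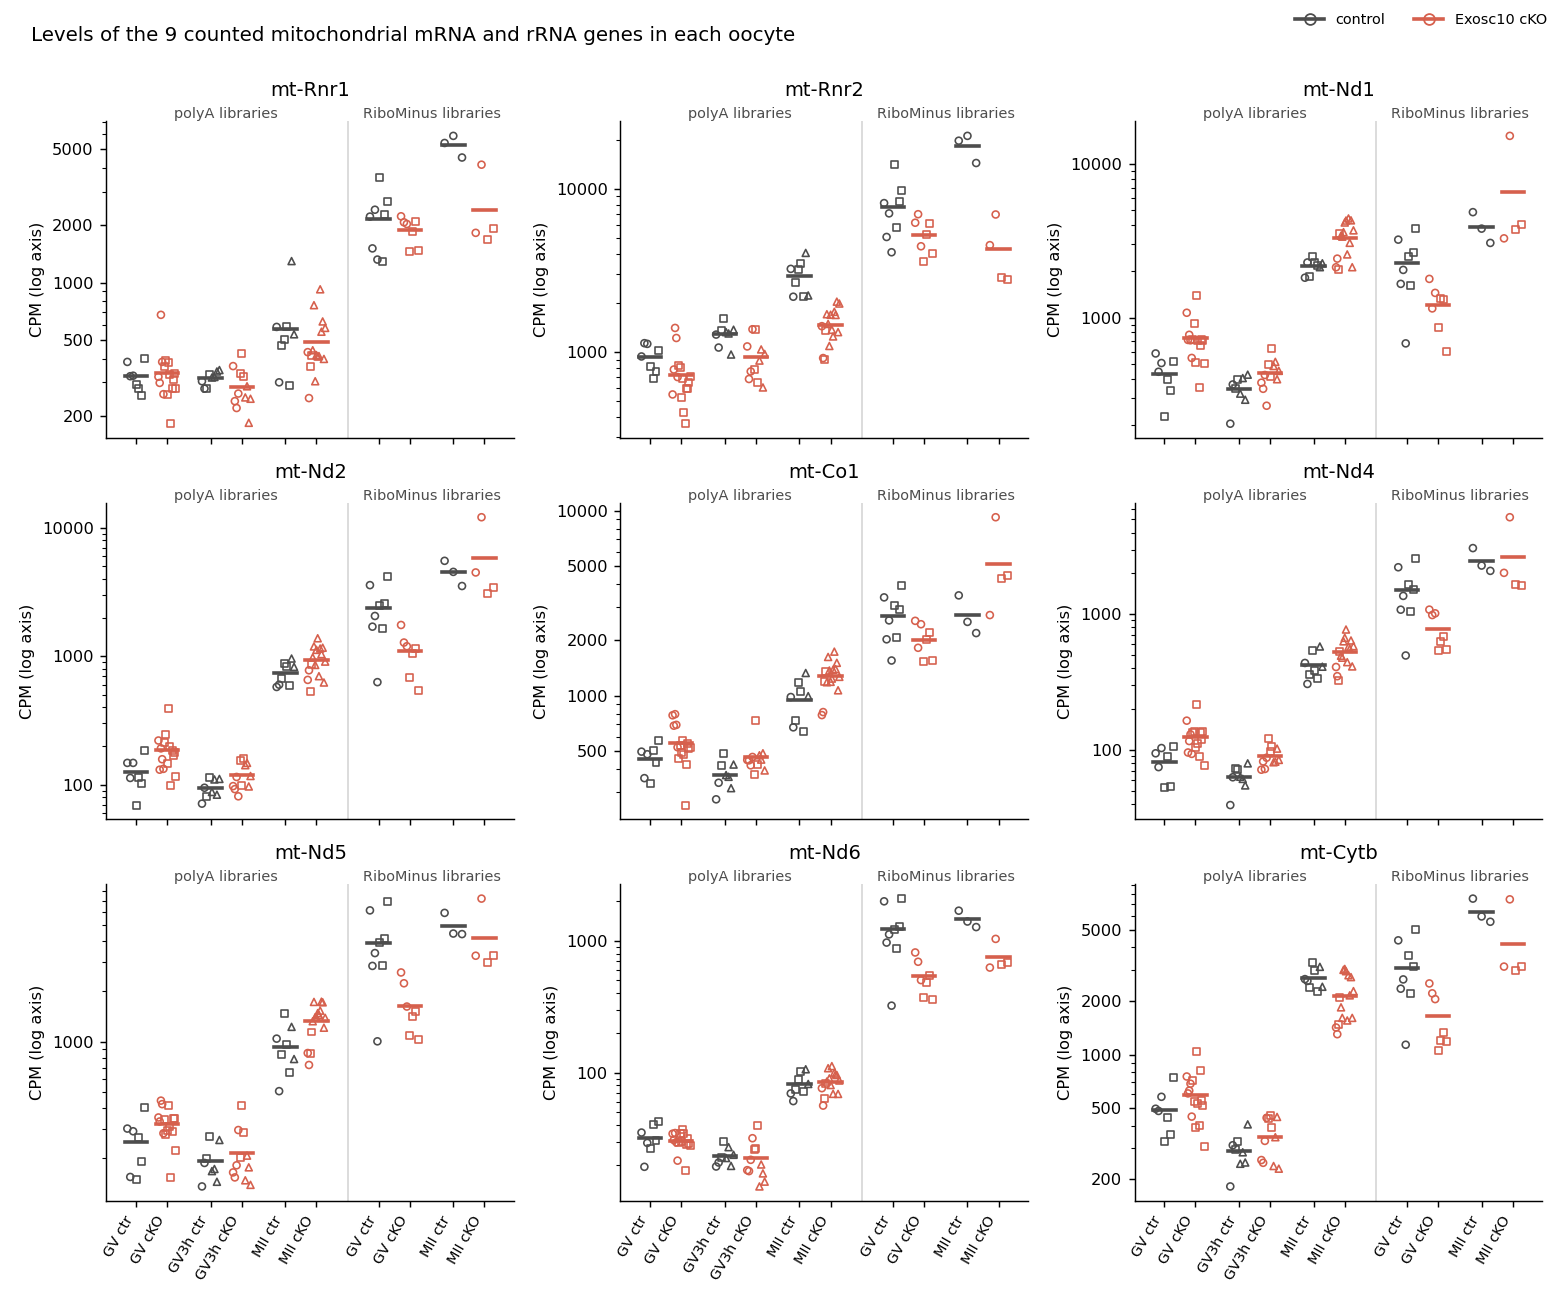
Level (TMM-scaled CPM, log axis) of the 9 counted mitochondrial rRNA and mRNA genes in each oocyte. Each point is 1 oocyte, its shape marks the female within a group, and bars are means; the 15 cKO MII eggs of the polyA libraries lie below the 8 controls for mt-Rnr2, while the genotypes overlap there for each of the 7 mRNAs.

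The mRNAs did not differ between genotypes in 1 direction. At MII their median log2 fold change was nearer to 0 than that of the rRNAs, 0.08 against −0.86 in polyA and −0.21 against −1.81 in RiboMinus libraries. At GV it was farther from 0, at 0.33 against −0.16 and −0.90 against −0.42, and at GV3h it was 0.26 against −0.35. mt-Nd1 encodes a core membrane subunit of complex I. In polyA libraries of GV oocytes it ran from 226 over 444 to 584 in controls and from 349 over 711 to 1394 in cKO oocytes, and 11 of 15 cKO oocytes were above all controls. Its log2 fold change of 0.69 ± 0.22 was the largest of the 7 mRNAs (adjusted p = 0.065, edgeR). At this stage 7.38% of all genes were called but none of the 9 counted mRNAs and rRNAs; 2 of the 7 mRNAs had an unadjusted p under 0.05, and DESeq2's Wald test called 1, where it called 14.8% of all genes. mt-Nd1 passed the threshold in 7 of 13 alternatives. The other 6 mRNAs lay between −0.15 (mt-Nd6) and 0.50 (mt-Nd4), and mt-Nd6 turned positive where library totals replaced TMM.

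At GV3h the 7 mRNAs lay between −0.10 (mt-Nd6) and 0.46 (mt-Nd4, adjusted p = 0.0711), with 1 at an unadjusted p under 0.05. mt-Nd4, another membrane subunit of complex I, had means of 63.1 ± 12.5 in controls and 89.8 ± 15.6 in cKO oocytes, and 9 of 11 cKO oocytes were above all controls. It was called higher in 7 of 15 alternatives, with adjusted p-values of 0.00224 to 0.261 over all 15. Scaling to library totals moved the median log2 change over all genes by 0.23 there. Under that scaling mt-Nd1, mt-Nd2 and mt-Nd4 were called higher (0.54, 0.52 and 0.69), mt-Rnr2 was not called (−0.32), and mt-Rnr1 and mt-Nd6 changed sign.

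At MII in polyA libraries mt-Cytb, the last mRNA of its strand, was the exception. It ran from 2262 over 2625 to 3287 in controls and from 1303 over 2102 to 3030 in cKO eggs, and 9 of 15 cKO eggs were below all controls. It was 1.52-fold lower (−0.60 ± 0.18, adjusted p = 0.0256, edgeR). The call was lost without V841, V842, V853 or V896, with adjusted p-values of 0.105, 0.0813, 0.0631 and 0.0561 and log2 fold changes of −0.60 to −0.42.

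The first mRNA of that strand, mt-Nd1, ran from 1815 over 2208 to 2479 in control eggs and from 2051 over 3405 to 4406 in cKO eggs, and 11 of 15 cKO eggs were above all controls (0.37 ± 0.18, adjusted p = 0.151). Of these cKO eggs, most came from V897, while the test weighs her as 1 female. mt-Nd2, mt-Co1, mt-Nd4, mt-Nd5 and mt-Nd6 lay between −0.11 and 0.22, with adjusted p-values from 0.484 to 0.81.

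In RiboMinus libraries of GV oocytes all 7 mRNAs were lower in cKO oocytes, from −1.25 (mt-Nd5) to −0.42 (mt-Co1), and none was called. Only 0.0315% of all 25425 genes were called there, 0.00393% lower. For mt-Nd6, which encodes a membrane subunit of complex I, the lowest and highest control oocytes stood at 322 and 2088 (mean 1232 ± 579), and those of the cKO at 361 and 815 (538 ± 165) (−1.20 ± 0.25, adjusted p = 0.113, edgeR). mt-Nd5, the largest of these subunits, had means of 3904 ± 1893 and 1645 ± 581 (−1.25 ± 0.30, adjusted p = 0.14). The lowest control oocyte in both was V1132_4; without that oocyte there were still 0 calls. By unadjusted p, 6 of the 7 were under 0.05, and DESeq2 called 2 of the 9 mRNAs and rRNAs, where it called 8.77% of all genes. Leaving out female V1126 also gave 2, where 4.71% of all genes were called. In polyA libraries at the same stage 6 of the 7 mRNAs were higher in cKO oocytes, as given above, and the difference between the 2 kinds of library was not tested.

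In RiboMinus MII eggs the mRNAs spread to both sides. mt-Nd6 stood at 1691, 1399 and 1270 in controls and at 626, 1033, 664 and 685 in cKO eggs, the only mRNA without overlap (−1.10 ± 0.29, adjusted p = 0.0542, edgeR). It was called with no filter on low counts, with the mean filter, with the oocyte as the replicate and by DESeq2, with adjusted p-values of 0.00719, 0.0467, 0.0146 and 0.0207. mt-Cytb stood at 7523, 5973 and 5577 in controls and at 3123, 7451, 2983 and 3128 in cKO eggs, where all but V1166_2 were below the controls (−0.86 ± 0.38, adjusted p = 0.186). mt-Co1 stood at 3486, 2506 and 2180 in controls and at 2728, 9225, 4318 and 4461 in cKO eggs, 3 of 4 above all controls (0.64 ± 0.28, adjusted p = 0.184).

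For mt-Nd1, the control eggs stood at 4842, 3784 and 3055 and the cKO eggs at 3271, 15171, 3738 and 3999. That is, 3 cKO eggs fell within the controls and V1166_2 stood far above them (0.33 ± 0.38, adjusted p = 0.575). mt-Nd2, mt-Nd4 and mt-Nd5 gave 0.05, −0.21 and −0.47 (adjusted p = 0.975, 0.766 and 0.405). Without V1166_2 mt-Nd1 and mt-Nd2 turned negative, at −0.16 and −0.26 (adjusted p = 0.788 and 0.689). By unadjusted p, 1 of the 7 was under 0.05.

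**Figure D4:**
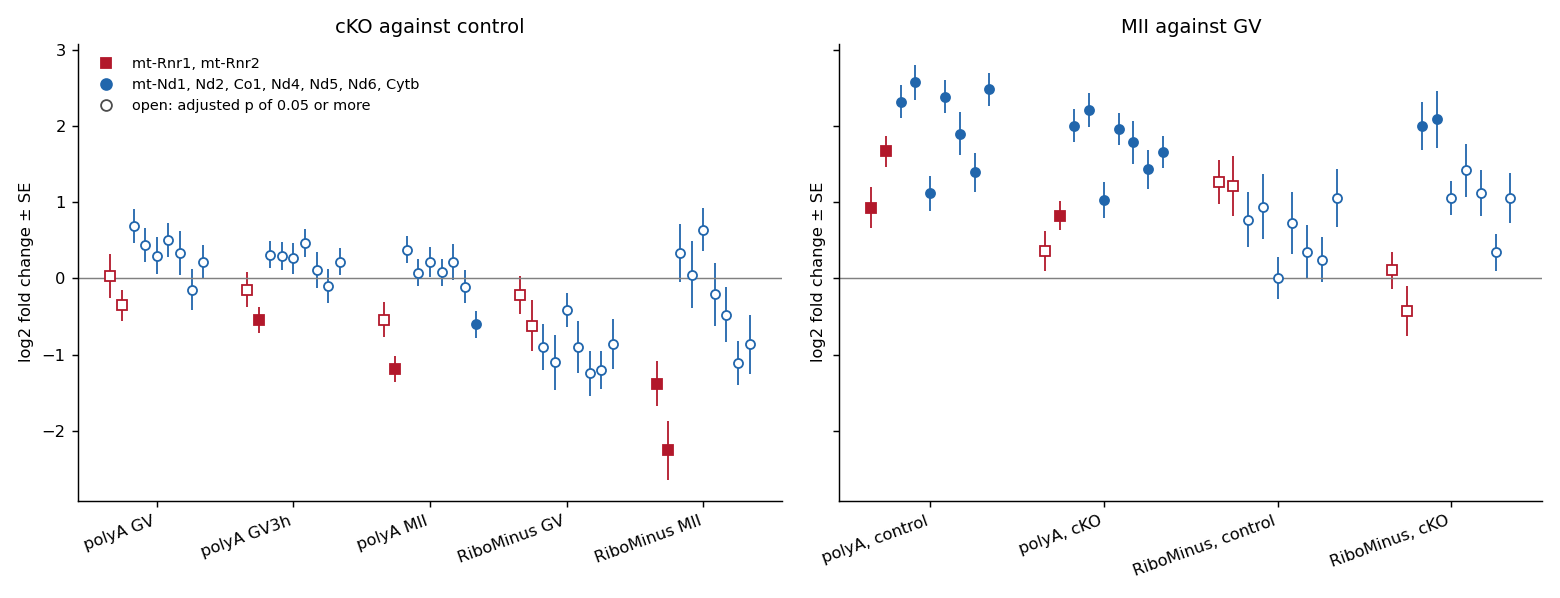
Log2 fold change ± SE of the 2 rRNAs (squares) and 7 counted mRNAs (circles) between genotypes (left, cKO against control) and between stages (right, MII against GV), in their order along the molecule within each comparison. Filled points are called at an adjusted p under 0.05; both rRNAs are filled at RiboMinus MII, where the mRNAs lie between −1.10 and 0.64.

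For the mRNAs in polyA libraries, the changes from GV to MII, 1.03 to 2.57 on the log2 scale, were larger than any difference between genotypes, the largest of which was the 0.69 of mt-Nd1. In polyA libraries of control oocytes all 7 counted mRNAs rose, with every MII egg above every GV oocyte. The share of all genes separated in this way was not counted. mt-Nd2 ran from 69.5 over 113 to 186 at GV and from 577 over 751 to 960 at MII, a rise of 2.57 ± 0.23 on the log2 scale (adjusted p = 2.15e-07, edgeR). mt-Cytb went from 490 ± 142 to 2710 ± 373 (2.48, adjusted p = 1.73e-07), and mt-Co1 rose least, from 454 ± 84.3 to 947 ± 246 (1.12, adjusted p = 0.00102). The others rose by 2.38 (mt-Nd4), 2.32 (mt-Nd1) and 1.39 (mt-Nd6), and mt-Nd5 rose 3.73-fold.

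Both rRNAs rose as well: mt-Rnr2 from 927 ± 177 to 2906 ± 701 (1.66, adjusted p = 5.04e-06) and mt-Rnr1 by 0.93 (adjusted p = 0.0106). The rise of mt-Rnr1 was lost without V856, V889 or V896 (0.99, 0.89 and 0.54, with adjusted p-values of 0.0518, 0.072 and 0.0571), and also with library totals (0.51, adjusted p = 0.142). All 9 were thus called higher, where 42.5% of all genes were called and 16.8% were called higher. The median log2 fold change of the mRNAs was 2.32, that of all genes −0.26, and with library totals the median of all genes was lower by a further 0.43 and 8 of the 9 were called.

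In cKO oocytes the same 7 mRNAs rose, mt-Nd1 by 4.01-fold and the others on the log2 scale by 2.21 (mt-Nd2), 1.96 (mt-Nd4), 1.79 (mt-Nd5), 1.66 (mt-Cytb), 1.43 (mt-Nd6) and 1.03 (mt-Co1, adjusted p = 0.00184), where 44.7% of all genes were called and 18.1% were called higher. mt-Rnr2 rose by 0.82 (adjusted p = 0.00238) and mt-Rnr1 was at 0.36 (adjusted p = 0.29), a value that turned negative with library totals. With that scaling neither mt-Rnr2 (0.30, adjusted p = 0.191) nor mt-Co1 (0.50, adjusted p = 0.0762) was called. The difference between the genotypes in this change was tested itself: it was −0.84 for mt-Rnr2 (adjusted p = 0.122) and −0.82 for mt-Cytb (adjusted p = 0.145), and none of the 9 was called, where 1.94% of all genes were, 1.59% higher and 0.353% lower. DESeq2's Wald test called 2, both lower, where it called 6.42% of all genes, and 1 mRNA and 1 rRNA had an unadjusted p under 0.05.

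Culture for 3 h gave smaller shifts. From GV to GV3h all 7 mRNAs were lower in both genotypes, from −0.81 (mt-Cytb) to −0.29 in controls and from −0.81 (mt-Cytb) to −0.33 in cKO oocytes. No gene of the whole table was called in either (0% of all genes). By unadjusted p, 2 mRNAs in controls and 5 in cKO oocytes were under 0.05, and DESeq2 called 0 of the 9 counted mRNAs and rRNAs in both. mt-Cytb had means of 490 ± 142 at GV and 287 ± 65.9 at GV3h in controls.

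In RiboMinus libraries the stage change was called in cKO oocytes for 2 mRNAs and no rRNA, and in controls for none of the 9; the difference between the genotypes did not pass its own test. mt-Nd1 went from 604 over 1305 to 1783 in GV oocytes to the 4 MII values above, all of them higher (4.01-fold, SE 0.32 on the log2 scale, adjusted p = 0.0279, edgeR). mt-Nd2 ran from 539 over 1159 to 1752 at GV and stood at 4491, 12082, 3091 and 3451 at MII, also without overlap (2.08 ± 0.37, adjusted p = 0.0374). These were 2 of 9, both higher, where 2.32% of all genes were called and 0.61% were called higher. Both calls were lost without V1131 (adjusted p = 0.133 and 0.171) or V1166 (0.0666 and 0.0809), and with only the groups compared (0.124 and 0.129), and mt-Nd1 also without egg V1166_2 (1.51, adjusted p = 0.0523). mt-Co1 gave 1.06 (adjusted p = 0.0514) and was called in 8 of 14 alternatives. Without V1167, 4 of the 9 were called.

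mt-Rnr1 and mt-Rnr2 gave 0.10 and −0.42 in cKO oocytes (adjusted p = 0.841 and 0.49), and mt-Rnr1 turned to −0.10 without egg V1166_2. In controls they gave 1.26 and 1.21 (adjusted p = 0.129 and 0.21), and the 7 mRNAs lay between 0.00 and 1.06; none was called, where 0.00787% of all genes were, and 1 mRNA and both rRNAs had an unadjusted p under 0.05. DESeq2 called 1 of the 9, where it called 8.42% of all genes. With only the 2 control groups compared, a fit with 1 residual degree of freedom, 27.9% of all genes were called, 14% higher, and 6 of the 9, all higher: both rRNAs, mt-Nd1, mt-Nd2, mt-Nd4 and mt-Cytb, with values of 0.73 (mt-Nd4) to 1.27 (mt-Rnr1). The interaction of stage and genotype was −1.63 for mt-Rnr2 (adjusted p = 0.237), −1.16 for mt-Rnr1 (0.257), 1.23 for mt-Nd1 (0.314) and 1.05 for mt-Co1 (0.263), with 0% of all genes called. DESeq2 called 0 of the 9, and 2 mRNAs and both rRNAs had an unadjusted p under 0.05.

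The tRNAs could be compared mainly in RiboMinus libraries, where all 12 counted ones passed the filter on low counts. In cKO MII eggs 11 of the 12 were below controls in the fit, 8 of them with no overlap between eggs. The share of all genes without overlap between these eggs was not counted. Of the 12, 3 were called, where 7.3% of all genes were called and 3.69% were called lower. mt-Tf stood at 29.2, 37.6 and 16 CPM in the control eggs and at 2.11, 0.745, 0.395 and 1.87 in the cKO eggs, 19.3-fold lower (log2 fold change −4.27 ± 0.81, adjusted p = 0.0254, edgeR). mt-Tl2, the second leucine tRNA, stood at 31.7, 18.6 and 21.5 in controls and at 1.34, 10.9, 2.08 and 5.76 in cKO eggs (−2.72 ± 0.64, adjusted p = 0.0412). mt-Tt, the threonine tRNA, stood at 38.7, 30.0 and 20.8 in controls and at 4.79, 7.95, 6.11 and 9.0 in cKO eggs (−2.22 ± 0.53, adjusted p = 0.0427). In all 3 the highest cKO egg was below the lowest control.

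By unadjusted p, 10 of the 12 were under 0.05, and DESeq2 called 9, all lower, where it called 24.3% of all genes and 9.18% lower. The 3 calls depend on single females and settings: without V1166 none was called (mt-Tf −4.64, adjusted p = 0.0532), without V1167 neither mt-Tf (−3.97, adjusted p = 0.0501) nor mt-Tl2 (−2.74, adjusted p = 0.0661) was, and without egg V1166_2 only mt-Tf was. With library totals mt-Tl2 (−2.51, adjusted p = 0.0534) and mt-Tt (−2.01, adjusted p = 0.0618) were not called, and with voom and the female as a random factor mt-Tf was not (−4.36, adjusted p = 0.0515). With only the groups compared 5 were called lower, where 7.54% of all genes were called and 3.27% were called lower. Of the 12, mt-Tl1 alone had a positive value: it stood at 33.3, 27.8 and 23.2 in controls and at 12.9, 59.1, 34.6 and 48.1 in cKO eggs, on both sides of the controls (0.17 ± 0.46, adjusted p = 0.835). The same gene was the 1 tRNA called between stages in RiboMinus cKO oocytes: at GV it ran from 4.75 over 8.91 to 12.6, and at MII every egg was higher (1.83 ± 0.38, adjusted p = 0.0491). That call was lost without any 1 of the 4 cKO females, with adjusted p-values of 0.0643 to 0.197, without egg V1166_2 (1.56, adjusted p = 0.172), with library totals (adjusted p = 0.0611) and with only the groups compared (adjusted p = 0.137). In RiboMinus controls no tRNA was called between stages by edgeR over all groups or by DESeq2, and none had an unadjusted p under 0.05; with only the groups compared 1 was called, higher.

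In RiboMinus GV oocytes all 12 tRNAs were lower in cKO oocytes, from −2.88 (mt-Tf) to −1.02 (mt-Tv, the valine tRNA), and none was called, with adjusted p-values from 0.113 to 0.554. By unadjusted p, 11 were under 0.05, and DESeq2 called 11, all lower, where it called 8.77% of all genes and 2.1% lower. mt-Tf ran from 0.666 over 26.7 to 52.8 in controls and from 0.266 over 0.78 to 13.1 in cKO oocytes. mt-Tq ran from 4.73 over 33.7 to 73.8 and from 5.03 over 8.35 to 24.7. The ranges of both overlapped through the lowest control, V1132_4. Without female V1126, who gave 3 of the 7 cKO oocytes, 10 of the 12 were called lower, where 4.71% of all genes were called and 1.8% were called lower.

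In polyA libraries 8 tRNAs passed the filter, with group means of at most 9.71 CPM. None was called between genotypes at any stage by edgeR over all groups or by DESeq2. At GV3h mt-Tf ran from 0 over 0.182 to 0.206 CPM in controls and from 0.243 over 0.377 to 1.19 in cKO oocytes, all 11 above all 8 controls (1.71, adjusted p = 0.0864, edgeR). In the controls such levels are single reads or none. Total counts at GV3h were 4638718 to 5728197 in controls and 5476376 to 8415126 in cKO oocytes, and the part of depth was not tested. mt-Tf was the 1 tRNA with an unadjusted p under 0.05 in these 3 comparisons. It was called higher by edgeR with only the groups compared, where 39.7% of all genes were called. From GV to MII, mt-Tl1 went from 0.454 ± 0.334 to 3.9 ± 1.09 in controls (3.13, adjusted p = 0.000372) and mt-Tq from 1.4 ± 0.927 to 9.71 ± 2.86 (2.76, adjusted p = 0.000361), both without overlap. mt-Tm, the methionine tRNA, rose by 2.91 (adjusted p = 0.000332) and mt-Tf by 3.48 (adjusted p = 0.00214). In cKO oocytes mt-Tl1 (2.63), mt-Tm (2.29) and mt-Tq (1.96) rose, with adjusted p-values of 0.00115, 0.00168 and 0.00349. A count in an oligo(dT) library can come from a tailed precursor that holds the tRNA.

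Ratios within a library do not depend on scaling between libraries. They are given as values, with no test. The ratio of rRNA to mRNA counts was lower in cKO oocytes in every polyA pair: 0.695 (0.526 to 0.935) against 0.424 (0.258 to 0.699) in GV oocytes, 1.19 (0.972 to 1.71) against 0.724 (0.458 to 1.01) after culture, and 0.432 (0.354 to 0.567) against 0.208 (0.127 to 0.296) in eggs. At MII the 15 cKO eggs lay below the 8 controls. In RiboMinus libraries it was 0.63 (0.418 to 0.956) in control and 0.819 (0.631 to 0.942) in cKO GV oocytes, the opposite order with overlap. In RiboMinus MII eggs it was 0.784, 1.08 and 0.857 in controls and 0.325, 0.194, 0.235 and 0.227 in cKO eggs, without overlap, and V1166_2 with 0.194 was the lowest cKO egg.

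The 2 rRNAs come from 1 precursor, with mt-Rnr1 ahead of mt-Rnr2. The ratio of mt-Rnr2 to mt-Rnr1 counts was 5.7 (3.12 to 7.5) in control and 3.17 (1.91 to 4.07) in cKO MII eggs of the polyA libraries, where 1 control, at 3.12, lay among the cKO eggs and the others lay above them. At RiboMinus MII it was 3.65, 3.59 and 3.18 in controls and 2.48, 1.68, 1.71 and 1.44 in cKO eggs, without overlap. At GV the means were 2.89 and 2.15 in polyA and 3.6 and 2.75 in RiboMinus libraries, with overlap in both.

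The ratio of mt-Cytb to mt-Nd1, the last and the first mRNA of the same strand, separated the genotypes at MII in both kinds of library. It was 1.26 (1.05 to 1.47) in control and 0.65 (0.48 to 0.834) in cKO eggs in polyA libraries, and 1.55, 1.58 and 1.83 against 0.955, 0.491, 0.798 and 0.782 in RiboMinus libraries. At GV it was 1.17 and 0.834 in polyA and 1.38 and 1.41 in RiboMinus libraries, with overlapping oocytes, and at GV3h, in polyA libraries, 0.836 in control and 0.839 in cKO oocytes. Counted tRNAs amounted to 1.45% (0.45 to 1.79) of mRNA counts in control and 0.676% (0.428 to 1.06) in cKO GV oocytes of the RiboMinus libraries. In MII eggs the values were 1.22%, 1.21% and 1.11% in controls and 0.285%, 0.332%, 0.554% and 0.728% in cKO eggs, without overlap.

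**Figure D5:**
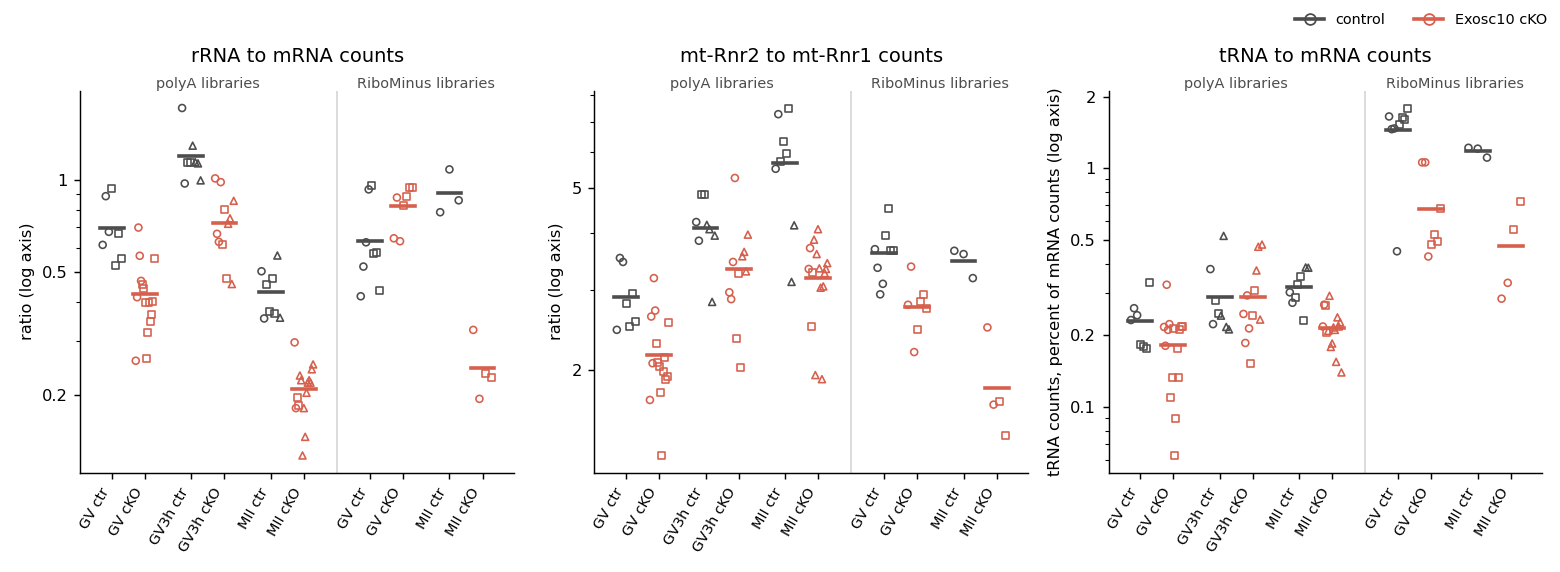
Ratio of mitochondrial rRNA to mRNA counts, of mt-Rnr2 to mt-Rnr1 counts, and of counted tRNA to mRNA counts (percent), each on a log axis, in every oocyte. Points, shapes and bars are as in the plot of class shares; at RiboMinus MII the controls lie at 0.784 to 1.08 and the cKO eggs at 0.194 to 0.325 in the first panel.

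The nuclear genes that work with these RNAs were read from lists of textbook members. One list held 36 nuclear genes of complexes III, IV and V, subunits and the ATP synthase inhibitor Atpif1. Of these, 32 were called lower and 2 higher between GV oocytes and MII eggs in polyA controls (median −2.91, with 25.7% of all genes called lower). In cKO oocytes 28 were called lower and 3 higher (median −2.4, with 26.6%). The mitochondrial mRNAs of the same complexes, mt-Cytb and mt-Co1, rose. In RiboMinus controls the median of the 36 was 1.36, with 0 called by edgeR and 25 at an unadjusted p under 0.05, while DESeq2 called 16 higher and 1 lower, where it called 3.35% of all genes higher, and edgeR with only the groups compared 28 higher and 1 lower, where it called 14% higher. In polyA MII eggs 17 of the 36 were called higher and 1 lower in cKO eggs (median 0.53), where 11.9% of all genes were called higher and 6.99% lower, led by Cox7c (2.51), Cox7b (2.46) and Cox6a1 (2.03), all of cytochrome c oxidase, and Cyc1 (2.33), cytochrome c1 of complex III. Leaving out 1 female at a time gave 9 to 16 called, where 13.5% to 16.1% of all genes were, the fewest without V853, 10 higher and 1 lower without V896, and 11 without V842 or V897. With only the groups compared 6 were called, where 8.94% of all genes were called higher, and with voom 10, where 13.8% were, all higher. In RiboMinus MII eggs 4 were called, all lower, where 3.69% of all genes were called lower, the subunit Atp5e by 2.88 and the ATP synthase inhibitor Atpif1 by 1.64 among them. That count was 9 lower without V1167, 1 higher and 10 lower with no filter, and 2 higher and 13 lower with voom, where 7.63%, 5.51% and 13.3% of all genes were called lower.

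Of 22 genes of mitochondrial transcription and replication, 8 were called lower and 4 higher from GV to MII in polyA controls, where 25.7% of all genes were called lower and 16.8% higher, Polrmt, the mitochondrial RNA polymerase, at −3.08 among them (adjusted p = 3.36e-07, edgeR). Between genotypes 2 were called higher and 0 lower in polyA GV oocytes, where 3.47% of all genes were called higher and 3.91% lower, and 4 higher and 0 lower after culture, where 12.5% were called higher and 12.7% lower. At GV the count was 0 without V857, V856 or V889 and with only the groups compared, 4 with DESeq2, all higher, where 14.8% of all genes were called, and 8 with the oocyte as the replicate, 7 of them higher, where 40.4% were. After culture it was 2 without V993, where 15.7% of all genes were called, to 12 with the oocyte as the replicate, where 55.5% were. At polyA MII, 1 was called lower and 1 higher, where 11.9% of all genes were called higher and 6.99% lower. The lower was Tfam, the factor that packages mitochondrial DNA and starts its transcription (−1.72, adjusted p = 0.0378, edgeR). That call was lost without V841, V842, V853 or V896. Of 30 genes of mitochondrial RNA processing, polyadenylation and decay, the cKO had 4 called higher and 1 lower in polyA GV oocytes. It had 7 higher and 5 lower after culture, and 4 higher and 0 lower in eggs. Of all genes, 3.47% were called higher and 3.91% lower at GV, 12.5% and 12.7% after culture, and 11.9% and 6.99% in eggs. The counts of the 30 rest on few females. The 5 at GV became 0 without V889 or with only the groups compared, where 0.529% and 0.00555% of all genes were called. They became 2 without V857 or V856, where 3.27% and 1.63% were. Voom gave 7 higher and 6 lower, where it called 20.1% of all genes. The oocyte as the replicate gave 9 higher and 5 lower, where 22% of all genes were called higher and 18.5% lower. The 12 after culture became 7 without V993, where 15.7% of all genes were called. The 4 in eggs became 1 without V842, where 13.5% were called, and 2 without V897, V853 or V896, where 15%, 14.7% and 15.5% were. They became 2 with only the groups compared, where 18.3% of all genes were called, and 12 with the oocyte as the replicate, where 37.6% were. At GV these included the RNase P proteins Hsd17b10 (2.54, adjusted p = 0.0216) and Trmt10c (1.35, adjusted p = 0.00944), and at MII Trmt10c (0.72, adjusted p = 0.03), Lrpprc (0.70, adjusted p = 0.0138), which stabilises mitochondrial mRNAs, and Grsf1 (0.66, adjusted p = 0.0274) of the mitochondrial RNA granule. None of these 5 calls held without each female in turn.

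In RiboMinus MII eggs 3 of the 30 were called in each direction, where 3.61% of all genes were called higher and 3.69% lower. No filter, the oocyte as the replicate, DESeq2 or voom gave 10 or 11 in all, where 11.9%, 23.7%, 24.3% and 24.8% of all genes were called. Those called lower by edgeR included Tfb1m (−2.06, adjusted p = 0.0134), which methylates the small-subunit rRNA. They also included Slirp (−1.46, adjusted p = 0.044), the partner of Lrpprc, which was not called without V1166 or V1167. Elac2 (1.39, adjusted p = 0.0266) was called higher. Of 16 mitochondrial translation factors, 2 were called higher and 1 lower in cKO eggs at polyA MII, with the initiation factor Mtif2 at 1.49 (adjusted p = 0.00273); without V841 or V842 only 1 was called, higher. At polyA MII 11.9% of all genes were called higher in cKO eggs and 6.99% lower.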

How the data were processed

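Gene counts were deposited by the authors as 1 table per oocyte. Per the submitters' processing notes, reads were handled with cutadapt 2.5, STAR 2.7.2a, SAMtools 1.9 and HTSeq 0.9.1 against mm10. The strand setting, the overlap mode and the annotation release are not given in the sources used here. Each table ended in 5 summary lines, which were left out of library sizes: reads in no gene were 5.85 to 14.2% and ambiguous reads 2.07 to 3.19% of those listed. Symbols, positions and sequences came from GENCODE M21 on GRCm38 (mm10), which matched 55394 of 55573 identifiers and all 37 members. Copies were sought among annotated transcripts with blastn 2.17.0. The 22 samples with rRNA files were not used.

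Counts were summed per female and fitted per library kind with edgeR 4.0.16 in R 4.3.3 (filterByExpr, TMM, quasi-likelihood test, Benjamini-Hochberg adjustment over all genes tested). Of the members, the 9 counted mRNAs and rRNAs and the 12 counted tRNAs are reported; mt-Nd3 and mt-Tr also passed the RiboMinus filter and are not reported as counted. Oocyte levels are counts per 1000000 (CPM) of the TMM-scaled library. P-values set each difference against the spread between females within groups, estimated over all groups of a library kind together. Alternatives were other scalings, filters, groups, DESeq2 1.42.0, limma 3.58.1 (voom) and leaving out each female; leaving out oocytes V1132_4 and V1166_2 was chosen after seeing the data. List genes are named by a rule: called, average log2 CPM of at least 3, and at most 4 per list and comparison by size of change. Members and lists were chosen with earlier results of these data known.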

Additional observations from a re-analysis of the deposited data

Results flagged for a closer look

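In 72 checks of a group of 4 to 10 oocytes for 1 value far from its nearest neighbour, 10 values stood apart, where chance gives about 1 in 20. Of these, 8 belonged to 1 egg, the RiboMinus cKO MII egg V1166_2. Its mRNA share of gene counts was 5.58%, with 2.18% in the next egg. Its levels in CPM were 15171 for mt-Nd1 (next 3999), 12082 for mt-Nd2 (next 4491), 5192 for mt-Nd4 (next 2019) and 7200 for mt-Nd5 (next 3275). They were 7451 for mt-Cytb (next 3128), 4160 for mt-Rnr1 (next 1920) and 1033 for mt-Nd6 (next 685). The levels of mt-Co1 and mt-Rnr2 in this egg, 9225 and 6969, were also the highest of its group but did not stand apart by this measure.

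The polyA control GV3h oocyte V995_2 had a tRNA share of 0.000776%, with 0.000436% in the next. The polyA control MII egg V896_1 had an mt-Rnr1 level of 1298 CPM, with 588 in the next.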

How the results depend on the processing

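The number of the 9 counted mRNAs and rRNAs called, out of 5 genotype, 6 stage and 3 interaction comparisons, depended on the settings as follows; the cause was not tested. For polyA GV genotype (0 called), DESeq2 size factors, library totals, no filter, a mean of at least 50 counts, DESeq2 and voom gave 1 each, and taking the oocyte as the replicate gave 3. For polyA GV3h genotype (1 called), DESeq2 size factors, no filter, the mean filter, only the groups compared and DESeq2 gave 2, library totals and the oocyte as replicate gave 3 and voom gave 0. For polyA MII genotype (2 called), no filter gave 3 and the oocyte as replicate 5. For RiboMinus MII genotype (2 called), no filter, the mean filter, the oocyte as replicate and DESeq2 gave 3 each and only the groups compared gave 1. From GV to GV3h (0 called), no filter and the oocyte as replicate gave 1 each in controls and 2 each in cKO oocytes. For the polyA interaction from GV to MII (0 called), no filter and DESeq2 gave 2 each. For RiboMinus GV genotype (0 called), no filter and the oocyte as replicate gave 6 each and DESeq2 gave 2. For RiboMinus controls from GV to MII (0 called), no filter gave 3, only the groups compared 6, the oocyte as replicate 4, DESeq2 1 and voom 2. For RiboMinus cKO oocytes (2 called), no filter, the oocyte as replicate, DESeq2 and voom gave 6 each, DESeq2 size factors, library totals and the mean filter gave 3 each, only the groups compared gave 0, and leaving out egg V1166_2 gave 1. For the RiboMinus interaction (0 called), no filter and voom gave 1 each and the oocyte as replicate 2. Leaving out 1 female at a time gave 0 to 1 at polyA GV3h, 1 to 2 at polyA MII, 0 to 1 in the polyA interaction (1 without V888 or V897), 0 to 2 at RiboMinus GV and 0 to 4 in RiboMinus cKO oocytes from GV to MII. The share of all genes called moved with the same settings, and the counts above are to be read against it. With the oocyte as the replicate it was 40.4%, 55.5% and 37.6% for the polyA genotype comparisons at GV, GV3h and MII, 37.6% and 23.7% for RiboMinus GV and MII, 30.9% and 16.1% for RiboMinus controls and cKO oocytes from GV to MII, 0.519% and 0.602% for controls and cKO oocytes from GV to GV3h and 14.8% for the RiboMinus interaction. With no filter the same comparisons gave 5.94%, 13.6%, 11%, 4.74%, 11.9%, 3.09%, 7.52%, 0.118%, 0.116% and 2.89%, and the polyA interaction from GV to MII 2.94%. With DESeq2 the first 7 gave 14.8%, 26.5%, 24.1%, 8.77%, 24.3%, 8.42% and 13.6%, and with voom 20.1%, 33.4%, 22.4%, 8.32%, 24.8%, 7% and 19.9%.

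The mRNA share of polyA cKO MII eggs was 0.607% to 0.833% when 1 female was left out. With summary lines in the denominator, the rRNA share of polyA control GV3h oocytes was 0.143%. Scaling to library totals moved the median change over all genes by 0.19, 0.23 and 0.09 in the polyA genotype comparisons at GV, GV3h and MII, by −0.43 and −0.52 from GV to MII in controls and cKO oocytes, and by 0.13 and 0.2 in the RiboMinus genotype comparisons. No called value changed sign under any alternative run. V1145 could not be left out, and fits of only the 2 groups compared that include her have 1 residual degree of freedom. No paired analysis was possible because each female gave oocytes of 1 group. In polyA libraries the 12 counted tRNAs held 39 to 1825 counts each over 64 libraries.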
